A study of Mus musculus with 6 samples.

Results

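The heat shock proteins and their co-chaperones are the protein-folding machinery of the cell, and their transcripts were compared here between lungs of tumor-bearing mice fed a high-fat diet and lungs of such mice fed a regular diet. Members were chosen by gene symbol: the HSP70, HSP110, HSP90, chaperonin and small HSP families, the J proteins (Dnaja, Dnajb and Dnajc genes), the heat shock factors Hsf1, Hsf2 and Hsf4, and the BAG co-chaperones Bag1 to Bag6. The rule gave 78 genes of the 18193 that had a probe set of their own on the array, and those 78 genes were read by 181 probe sets, a probe set being the group of oligonucleotides that reports 1 transcript. Each gene was represented by its probe set with the highest mean over the 6 arrays. Hsp90ab1, Hsf1 and Dnajc19 were not analysed here.

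Both groups were transgenic mice in which doxycycline switches on a mutant EGFR and lung tumors form. In this model the doxycycline-dependent activator is driven by the promoter of the club cell secretory protein gene, so the oncogene is switched on in the epithelial cells that use this promoter, whereas the RNA came from the lung as a tissue. The LC-HFD group (3 adult male mice) received a high-fat diet in which fat supplies 60% of energy, and the LC-RD group (3 adult male mice) a regular diet. Per the labels the diet was given until 8 weeks and was followed by 7 weeks of the same diet with doxycycline at 625 ppm, with 2 mg/ml doxycycline in the drinking water; the study's methods give other durations. Each mouse was read on 1 Affymetrix mouse array, and mice without tumor induction were not analysed here.

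Chaperones of the HSP70 family bind unfolded stretches of protein and release them through cycles of ATP hydrolysis. J proteins deliver the client and start the hydrolysis, while HSP110 and BAG proteins exchange the nucleotide. HSP90 finishes the folding of kinases and receptors, including mutant EGFR, and the small HSPs hold unfolded proteins until HSP70 can act. Heat, oxidants and proteotoxic drugs induce the cytosolic set through the heat shock factor HSF1, and misfolded protein in the endoplasmic reticulum (ER) induces a separate ER set through ATF6, XBP1 and ATF4.

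The arrays of a group resembled each other closely, with Pearson's correlations over all probe sets of 0.993 to 0.994 within LC-HFD, 0.996 to 0.998 within LC-RD and 0.983 to 0.988 between the groups. Values are log2 throughout, so that a difference of 1 is a 2-fold change. They were compared within a probe set only, except in the summed levels of marker lists. A summed level is the log2 of the added unlogged values of several probe sets, so that bright probe sets weigh most. Of 6 lung epithelial markers, 0 passed by limma, 2 had an unadjusted p under 0.05 and 4 passed by the methods' t-test. Sftpc, surfactant protein C, read 13.81 on every array, the ceiling of its probe set, so that no difference could show there; its second, faint probe set was higher by 1.45 in LC-HFD. The hybridization controls, which are added after RNA extraction, averaged 11.49 to 11.53 in LC-HFD and 10.01 to 10.04 in LC-RD, and the 18S ribosomal RNA controls averaged 7.57 to 7.69 in LC-HFD and 12.51 to 12.54 in LC-RD. These controls separate the groups without overlap, so that diet and the handling of RNA and arrays cannot be told apart in any difference below. In whole lung, a lower value from fewer cells of a type and one from less RNA per cell cannot be told apart either.

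Promoters of Hspa1b, Hspe1 and Hspa5 are shown because they carry the binding motifs by which the inducible sets are usually recognized. Hspe1 itself was classed here as constitutive. The sequences are from RefSeq (GRCm38.p6) and run 5′ to 3′ over the 250 bases before the transcription start. The Hspa1b window (chr17:34959239-34959488, minus strand) holds 1 match to GAANNTTC, a pair of inverted heat shock units, in capitals. The Hspe1 window (chr1:55087898-55088147, plus strand) holds 2 overlapping matches to an element of 3 alternating units, in capitals. The Hspa5 window (chr2:34771840-34772089, plus strand) holds the ER stress element, CCAAT and CCACG separated by 9 bases, in capitals.
Hspa1b: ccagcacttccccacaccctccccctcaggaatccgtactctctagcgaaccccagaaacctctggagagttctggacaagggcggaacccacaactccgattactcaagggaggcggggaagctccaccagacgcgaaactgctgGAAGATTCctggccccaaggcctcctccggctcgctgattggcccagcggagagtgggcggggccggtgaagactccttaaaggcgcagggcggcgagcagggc
Hspe1: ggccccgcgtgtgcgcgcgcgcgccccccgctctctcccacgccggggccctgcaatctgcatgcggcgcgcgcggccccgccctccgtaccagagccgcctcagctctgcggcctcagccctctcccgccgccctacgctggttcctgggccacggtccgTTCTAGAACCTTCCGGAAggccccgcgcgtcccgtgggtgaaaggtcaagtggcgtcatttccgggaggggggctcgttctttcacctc
Hspa5: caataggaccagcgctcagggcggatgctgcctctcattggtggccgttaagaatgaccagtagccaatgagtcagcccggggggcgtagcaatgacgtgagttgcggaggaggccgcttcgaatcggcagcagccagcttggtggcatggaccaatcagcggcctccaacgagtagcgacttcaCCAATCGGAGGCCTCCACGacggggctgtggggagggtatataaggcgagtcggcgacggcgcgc

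Among all 32851 promoter windows of 300 bases (250 before and 50 after the start, both strands searched), 7.86% held GAANNTTC, as did 9.04% of the genes they belong to. Of the 63 members with a window, 15 held it: Bag3, Dnaja1, Dnaja4, Dnajb6, Dnajc27, Dnajc5g, Hspa1a, Hspa1b, Hspb1, Hspb3, Hspb6, Hspb8, Hspd1, Hspe1 and Hsph1. The overlapping motif TTCNNGAA was found in 8.52% of windows, 9.6% of genes and 6 of the 63 members. An element of 3 alternating units was found in 0.603% of windows, 0.662% of genes and in 4 members, Dnajb6, Hspd1, Hspe1 and Hsph1. Of these only Hsph1 was classed here as inducible, and the others as constitutive. The ER stress element was found in 0.119% of windows, 0.137% of genes and in 3 members, Dnajc3, Hsp90b1 and Hspa5. Hspd1 and Hspe1 are transcribed in opposite directions from neighboring starts, their windows share 285 bases, and the same element serves as the match for both. The Hspa1a window differs from that of Hspa1b at 3 of 250 bases (98.8% identical).

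Of the 78 members, 10 were higher in LC-HFD at an adjusted p under 0.05 and 15 were lower, which is 12.8% and 19.2%; over all 18193 genes 11.1% were higher and 16.2% lower. Over all 45037 probe sets the shares were 11.3% and 13.6%. The median difference was -0.02 over the members and 0.02 over all genes. Members were brighter than most genes, with a mean of at least 6 in 59 of 78 members and 9084 of 18193 genes. At that level 15.3% of members were higher and 23.7% lower, against 12.1% and 23.4% of genes. The medians there were -0.03 for members and -0.07 for genes. Only Hspa1b among members changed over 2-fold, against 1.68% of all genes. The groups did not overlap in 37 of 78 members, and in 49.1% of all genes. Without LC-RD replicate 1 the number of lower members was 7 (8.97%, against 8.54% of all genes), and without LC-RD replicate 2 it was 8 (10.3%, against 8.48%). The number of higher members stayed between 8 and 10 (10.3% to 12.8%) when any single array was left out. In the same fits the share of all genes that were higher ran from 5.32% (without LC-RD replicate 1) to 11.8% (without LC-HFD replicate 1).

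**Figure D1:**
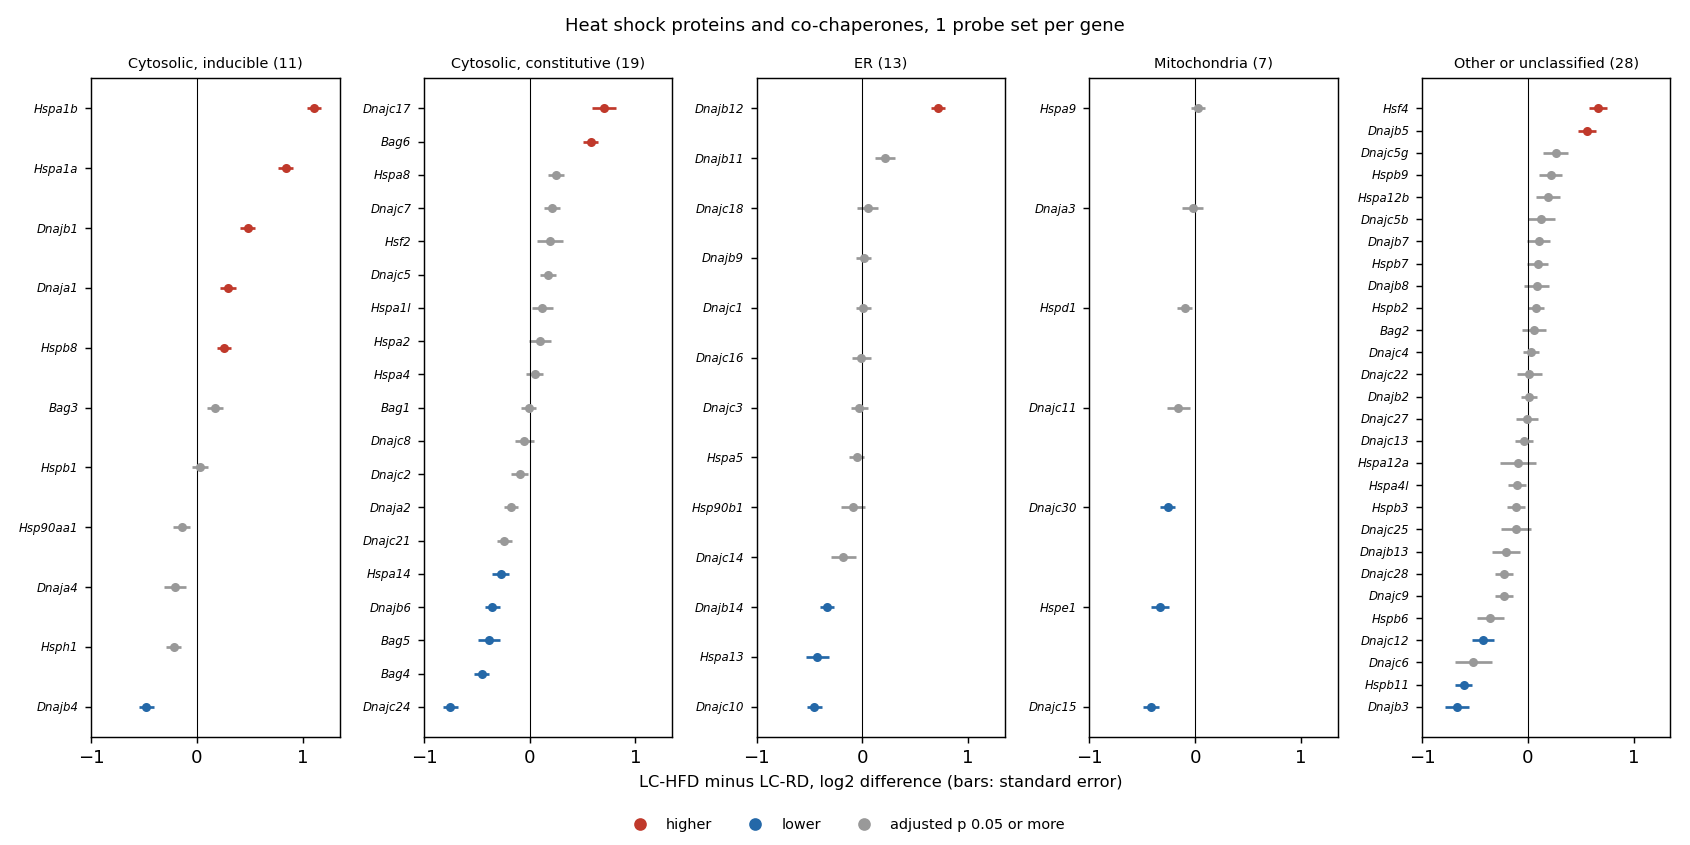
Difference between LC-HFD and LC-RD (log2, horizontal axis) for each of the 78 members, 1 row per gene, in 5 panels by compartment and by whether the gene is stress-inducible. Points are fitted differences, bars are standard errors, and color gives the call. Hspa1b lies farthest to the right at 1.11, and Dnajc24 farthest to the left at -0.75.

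The inducible cytosolic chaperones were split. Of 11 such members, 5 were higher in LC-HFD (Hspa1a, Hspa1b, Dnajb1, Dnaja1 and Hspb8), 1 was lower (Dnajb4) and 5 did not pass. These were 45.5% higher and 9.09% lower, against 12.1% and 23.4% of all genes with a mean of at least 6. All 11 had such a mean. The median difference of the 11 was 0.17. This median was -0.06 when all probe sets of a gene were used, whether through the median of their levels on each array or through the median of their differences (the latter chosen after seeing the data).

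Hspa1a and Hspa1b encode the stress-induced HSP70, from neighboring genes of almost the same sequence. Hspa1b read 9.21, 9.26 and 9.26 on the LC-HFD arrays and 8.10, 8.19 and 8.13 on the LC-RD arrays. Every LC-HFD value was above every LC-RD value. The difference was 1.11 ± 0.07 (standard error), a 2.16-fold change, with an adjusted p of 0.000221 by limma. The other probe sets of Hspa1b gave differences of 1.43 and 1.46, so that all 3 were over 2-fold. Hspa1a read 7.09, 7.02 and 7.00 in LC-HFD and 6.24, 6.18 and 6.16 in LC-RD. It rose by 0.84 ± 0.07 (adjusted p = 0.00062, limma), again without overlap. Values of these 2 genes are uncertain individually, since probes of one may bind transcripts of the other.

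Dnajb1, the principal J protein partner of stress-induced HSP70, was the next of the inducible members. It read 8.76, 8.70 and 8.75 in LC-HFD and 8.30, 8.27 and 8.20 in LC-RD, a rise of 0.48 ± 0.07 (adjusted p = 0.00403, limma). Its second probe set gave 0.30, with an adjusted p of 0.0523. Dnaja1, a J protein of the cytosol, read 10.06, 10.19 and 10.09 in LC-HFD and 9.83, 9.86 and 9.76 in LC-RD. Its difference was 0.30 (adjusted p = 0.0279, limma), but its other probe sets gave -0.06 and -0.41, neither of which passed. Hspb8, a small HSP that works with Bag3, read 9.33, 9.29 and 9.34 in LC-HFD and 9.11, 9.01 and 9.08 in LC-RD. The groups did not overlap, and the difference was 0.26 (adjusted p = 0.0357, limma). The Hspb8 call was lost whichever array was left out, with adjusted p between 0.055 and 0.136, and that of Dnaja1 was kept in 1 of 6 such fits.

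The remaining inducible members were lower or did not pass. Dnajb4, a J protein related to Dnajb1, read 8.19, 8.18 and 8.09 in LC-HFD and 8.69, 8.62 and 8.59 in LC-RD, a fall of 0.48 on the log2 scale with an adjusted p of 0.0047 (limma). Hsph1, the inducible HSP110, read 7.67, 7.67 and 7.59 in LC-HFD and 7.86, 7.82 and 7.90 in LC-RD. Its groups did not overlap, and its difference of -0.22 had an adjusted p of 0.0586. Hsp90aa1, the inducible cytosolic HSP90, differed by -0.14 with overlapping groups. Bag3 differed by 0.17 (adjusted p = 0.154), Hspb1 by 0.03 (adjusted p = 0.781) and Dnaja4 by -0.20 (adjusted p = 0.19). The second probe set of Hspb1 passed in the other direction, at -0.24 without overlap (adjusted p = 0.0475, limma).

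**Figure D2:**
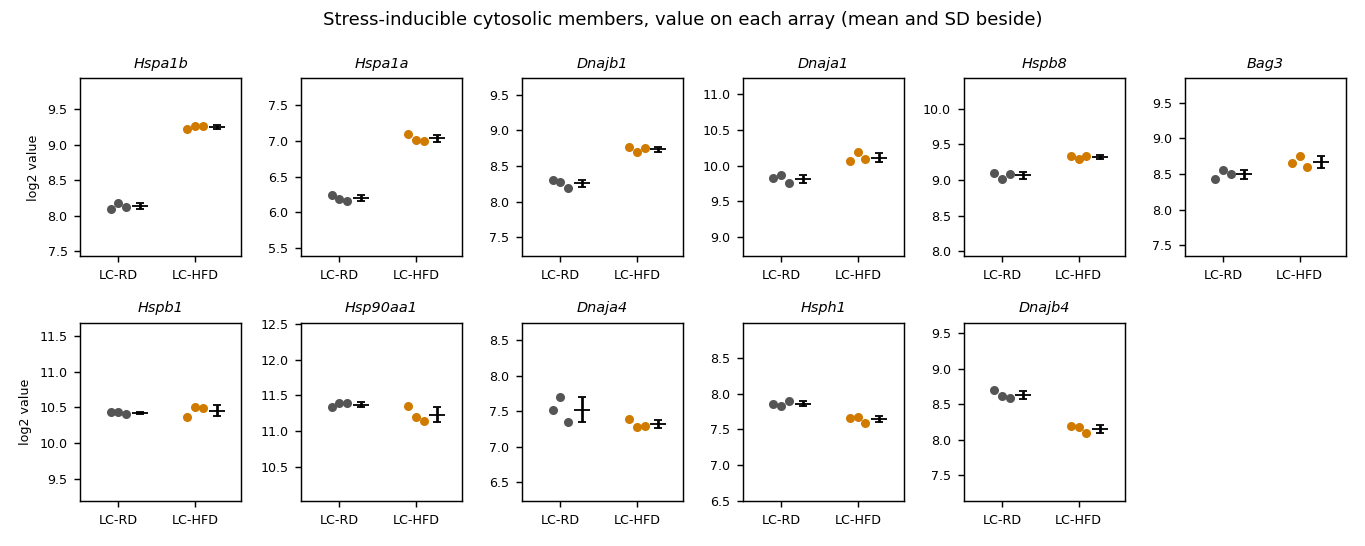
Log2 value (vertical axis, the same span in every panel) of the 11 inducible cytosolic members on each array, with LC-RD at left and LC-HFD at right. Circles are single mice, and the bar beside them is the mean with its SD (n = 3). The panels run from the largest rise (Hspa1b) to the largest fall (Dnajb4), and the groups overlap for Hspb1, Hsp90aa1 and Dnaja4.

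Motif matches were found in members of both directions. Of the 9 higher members with a promoter window, 4 held GAANNTTC (Dnaja1, Hspa1a, Hspa1b and Hspb8), and of the 11 lower members with a window, 2 did (Dnajb6 and Hspe1). TTCNNGAA was held by 0 of these 9 and by 4 of the 11 (Dnajb4, Dnajb6, Dnajc10 and Hspe1). The 4 members with the 3-unit element included 0 that rose and 2 that fell.

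Of the 19 constitutive members of the cytosol and nucleus, 2 were higher in LC-HFD (Bag6 and Dnajc17) and 5 lower. These were 10.5% and 26.3%, against 11.1% and 16.2% of all genes. Of genes with a mean of at least 6, as 17 of the 19 had, 12.1% were higher and 23.4% lower. Hspa8, the constitutive HSP70, read 11.98, 11.82 and 11.85 in LC-HFD and 11.57, 11.63 and 11.70 in LC-RD. The groups did not overlap, and the difference was 0.25 (adjusted p = 0.0601, limma). Its other probe sets differed by 0.38, 0.56 and 0.96, and 2 of these passed the test. Bag6, which guides newly made membrane proteins and defective chains, read 7.93, 8.01 and 7.93 in LC-HFD and 7.42, 7.39 and 7.34 in LC-RD. It rose by 0.58 (adjusted p = 0.00215, limma), on its single probe set. Dnajc17, a nuclear J protein, rose by 0.70 ± 0.12 (adjusted p = 0.00608, limma), but its other probe sets gave -0.15 and 0.07.

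The 5 lower members were Dnajc24, Bag4, Bag5, Dnajb6 and Hspa14. Dnajc24, which takes part in the diphthamide modification of elongation factor 2, read 5.75, 5.63 and 5.72 in LC-HFD and 6.48, 6.48 and 6.40 in LC-RD. It fell by 0.75 on the log2 scale (adjusted p = 0.000962, limma), the largest fall of any member on its brightest probe set. Its second probe set gave -0.22 with overlapping groups (adjusted p = 0.161). Bag4, an HSP70 nucleotide exchange factor, fell by 0.46 with an adjusted p of 0.00545. Bag5, a multi-domain exchange factor, fell by 0.38 with an adjusted p of 0.0371, while its second probe set gave 0.12 (adjusted p = 0.396). Dnajb6, which suppresses protein aggregation, fell by 0.35 (adjusted p = 0.013), while another of its probe sets was higher by 0.28 (adjusted p = 0.0476). Hspa14, a ribosome-associated HSP70, fell by 0.28 (adjusted p = 0.0416), and its other probe sets gave 0.30 and -0.19, neither of which passed. When any single array was left out, Hspa14 passed in 1 of 6 fits (adjusted p up to 0.138), Bag5 in 2 (up to 0.13) and Dnajb6 in 5 (lost without LC-RD replicate 1, 0.0622). Bag1 and Hspa4 differed by -0.01 and 0.05.

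Of the 7 ER-stress-inducible members, 0 were higher and 2 lower in LC-HFD by limma, with the same counts at an unadjusted p under 0.05. The methods' t-test gave 0 higher and 1 lower. By limma 28.6% were lower, against 23.4% of all genes with a mean of at least 6, as all 7 had. Of those genes 12.1% were higher. Hspa5 (BiP), the ER HSP70 and the usual readout of ER stress, read 11.10, 11.17 and 11.14 in LC-HFD and 11.12, 11.19 and 11.26 in LC-RD. The groups overlapped, and the difference was -0.05 ± 0.07 (adjusted p = 0.615, limma). Hsp90b1, the ER HSP90, differed by -0.09 ± 0.11 and Dnajb9, an ER J protein, by 0.01. Hspa13 fell by 0.43 (adjusted p = 0.0312), with LC-HFD values of 8.39, 8.03 and 8.21 and LC-RD values of 8.55, 8.60 and 8.76. This call was kept in 1 of 6 fits that each left out 1 array, with adjusted p up to 0.0936. Dnajc10, an ER disulfide reductase, fell by 0.46 (adjusted p = 0.00484), while its other probe sets gave -0.02 and -0.06. Dnajc3, an inhibitor of the kinase PERK, differed by -0.03 on its brightest probe set, and 3 of its other 4 were lower, by 0.34 to 0.61 on the log2 scale.

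Constitutive ER members differed in both directions. Dnajb12, an ER membrane J protein, read 7.33, 7.35 and 7.37 in LC-HFD and 6.65, 6.63 and 6.63 in LC-RD. It rose by 0.72 (adjusted p = 0.000817, limma), although its second probe set gave 0.02. Dnajb14, its close relative, fell by 0.33 (adjusted p = 0.013), a call lost without LC-RD replicate 1 or 2 (adjusted p up to 0.0608).

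Of the 7 mitochondrial members, 0 were higher and 3 lower in LC-HFD by limma, with a median difference of -0.16. The counts were the same at an unadjusted p under 0.05 and by the methods' t-test. Of all genes with a mean of at least 6, as all 7 had, 12.1% were higher and 23.4% lower by limma. The median of those genes was -0.07. Hspe1, the co-chaperonin of HSP60, read 9.55, 9.55 and 9.38 in LC-HFD and 9.78, 9.80 and 9.89 in LC-RD. It fell by 0.33 (adjusted p = 0.0249, limma). Hspd1, HSP60 itself, read 9.49, 9.37 and 9.42 against 9.53, 9.54 and 9.52, and its difference of -0.10 did not pass (adjusted p = 0.335). Dnajc15, a J protein of the inner membrane, fell by 0.42 (adjusted p = 0.00834) and Dnajc30 by 0.26 (adjusted p = 0.0332). When any single array was left out, Dnajc15 passed in 6 of 6 fits, Hspe1 in 2 (adjusted p up to 0.0783) and Dnajc30 in 1 (up to 0.122). Hspa9, the mitochondrial HSP70, differed by 0.03, and 1 of its 5 probe sets was higher by 0.60 (adjusted p = 0.0119).

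**Figure D3:**
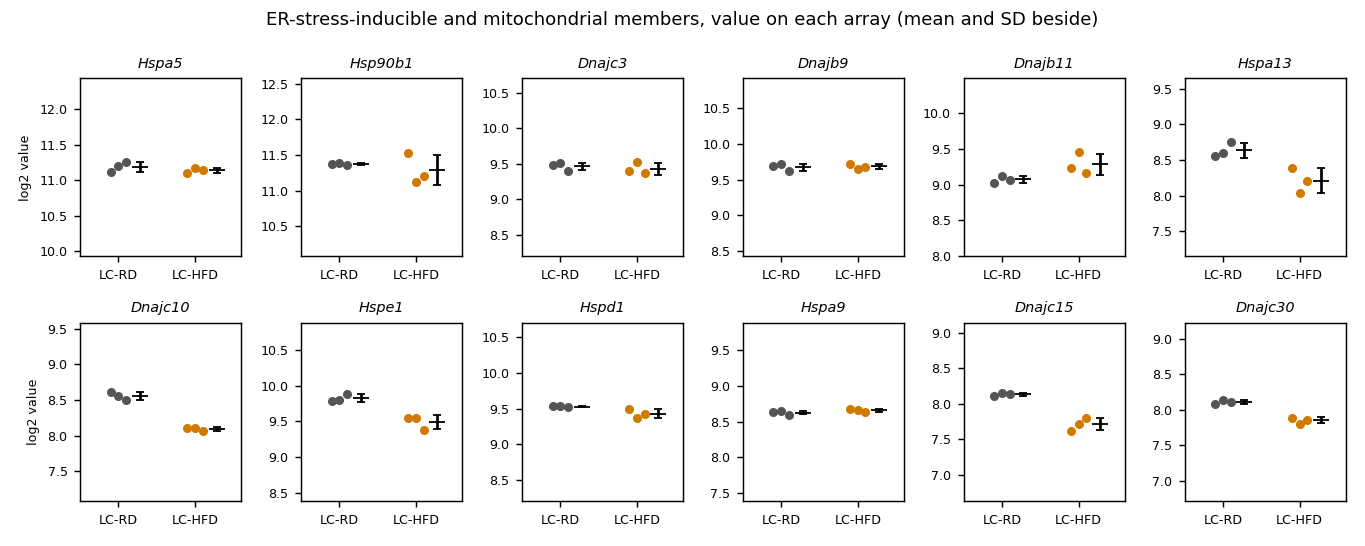
Log2 value (vertical axis, the same span in every panel) of the 7 ER-stress-inducible members and 5 of the 7 mitochondrial members on each array, LC-RD at left and LC-HFD at right. Circles are single mice, and the bar is the mean with its SD (n = 3). Hspa5 overlaps between the groups at 11.10 to 11.26, whereas Dnajc10 and Dnajc15 do not overlap.

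Of the 28 members put in no class, 2 were higher and 3 lower. These were 7.14% and 10.7%, against 11.1% and 16.2% of all genes. Dnajb5, a J protein of the cytosol, read 7.29, 7.22 and 7.19 in LC-HFD and 6.61, 6.61 and 6.81 in LC-RD. It rose by 0.56 (adjusted p = 0.00444, limma), and all 3 of its probe sets passed. Hsf4, a heat shock factor best known from the lens, was read low, at 4.54, 4.55 and 4.71 in LC-HFD and 3.87, 3.98 and 3.96 in LC-RD, and rose by 0.66 (adjusted p = 0.00209). Hspb11, an intraflagellar transport protein despite its name, fell by 0.61 (adjusted p = 0.00267), while its second, faint probe set was higher by 0.48. Dnajc12 fell by 0.42 (adjusted p = 0.0232), a call lost without LC-HFD replicate 1 or 2 and without LC-RD replicate 1 or 2 (adjusted p up to 0.0895). Dnajb3 fell by 0.67 (adjusted p = 0.00592), with all 6 values below 4.

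The probe sets of a member often differed, and how often those of all genes did was not computed. Of the 48 members with several probe sets, 2 (Hspa1b and Dnajb5) were higher on all of them, and 0 were lower on all of them by limma, 19 being lower on at least 1. In 4 members, Dnaja3, Dnajb6, Hspa12a and Hspb11, 1 probe set was higher and another lower. Counting a member as changed when any of its probe sets passed, a choice made after seeing the data, gave 17 higher and 23 lower. The shares of all genes under this rule were not computed, so these counts cannot be set against a background. Whether these differences reflect transcript ends, splice forms or probe binding was not tested.

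**Figure D4:**
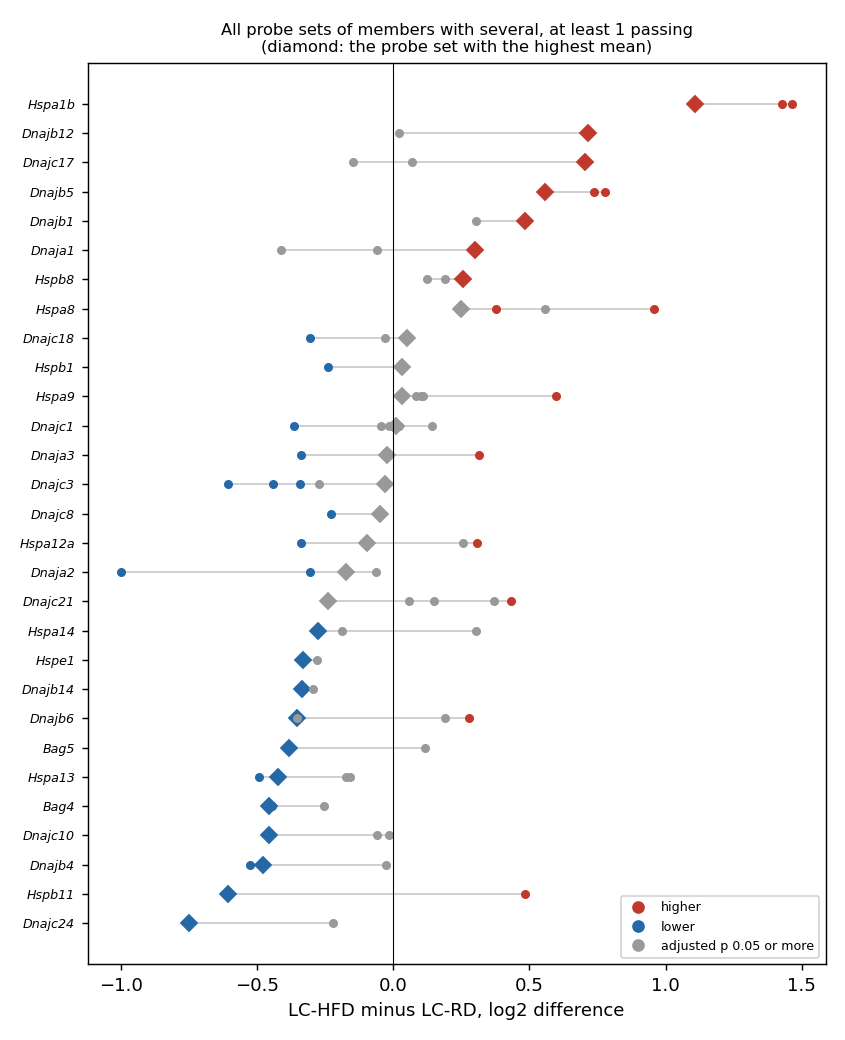
Differences (log2, horizontal axis) of every probe set of the 29 members that have several and at least 1 that passed. The diamond is the probe set with the highest mean, circles are the others, the gray line joins the lowest and the highest, and color gives the call. Points of Hspa1b and Dnajb5 lie to the right of 0 throughout, while those of Dnajb6 and Dnaja3 lie on both sides.

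Most partner proteins outside these families did not pass the test. The genes of the lists that follow here all had a mean of at least 6. At that level 12.1% of all genes were higher and 23.4% lower by limma. Of 20 HSP70 and HSP90 partners, 2 were higher and 3 lower, with a median of 0.06. Unc45a, a myosin chaperone that binds HSP90, rose by 0.34 (adjusted p = 0.0267, limma). Of its 4 probe sets 2 were higher, and their differences ran from -0.31 to 0.37. The other was Stub1 (CHIP, a ubiquitin ligase that binds HSP70 and HSP90), named after its value was seen, which rose by 0.29 (adjusted p = 0.0228). Tomm70a, a mitochondrial import receptor for HSP70 and HSP90 clients, fell by 0.62, Fkbp5 by 0.45 and Hikeshi, the nuclear import carrier of HSP70, by 0.42. Tomm70a was lower on 2 of 5 probe sets (-0.78 to 0.18), and Fkbp5 on 2 of 3 (-0.50 to 0.14). Fkbp4, Cryab and Ppp5c, named after their values were seen, did not pass on their brightest probe sets. Of 3 probe sets each, Fkbp4 was higher on 1 (-0.07 to 1.01), Cryab on 1 and Ppp5c on 2. Of 14 TRiC and prefoldin subunits, which fold actin and tubulin, 1 was lower (Vbp1, by 0.32) and 0 higher by limma; 3 were lower and 0 higher at an unadjusted p under 0.05, and 2 lower and 1 higher by the methods' t-test. Of 12 further mitochondrial chaperones and proteases, 3 were lower (Yme1l1, Clpx and Hscb) and 0 higher by limma. At an unadjusted p under 0.05, 4 were lower and 0 higher, and the methods' t-test gave 1 lower and 1 higher.

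In the list of ER folding and unfolded protein response genes, 2 of 24 were higher and 3 lower. These were 8.33% and 12.5%, against 12.1% and 23.4% of all genes with a mean of at least 6, as all 24 had. Atf4, the transcription factor translated when eIF2α is phosphorylated, read 10.39, 10.46 and 10.49 in LC-HFD and 9.48, 9.43 and 9.51 in LC-RD. It rose by 0.97 (adjusted p = 0.000389, limma), and Syvn1, an ER ubiquitin ligase named after its value was seen, rose by 0.29 (adjusted p = 0.0493). Trib3 fell by 0.60, Herpud1 by 0.57 and Edem1 by 0.45, each without overlap between groups. Ddit3, of the same list and named after its value was seen, differed by 0.25 without overlap (adjusted p = 0.0527, limma). Its second probe set passed and was higher by 1.29. Fainter probe sets of other genes in this list, also named after their values were seen, passed in both directions. Calr was higher on 2 of 3 probe sets (0.09 to 0.66), and Hyou1 and Ern1 on 1 each. Xbp1 was lower on 2 of 4 (-0.96 to 0.06), and Canx and Sec63 on 1 each. Cirbp, an RNA-binding protein induced by mild cold and lowered by warmth, read 7.23, 7.11 and 6.98 in LC-HFD and 8.43, 8.39 and 8.53 in LC-RD, a fall of 1.34 (adjusted p = 0.000276, limma). Rbm3, the other gene of that list, was not analysed here.

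**Figure D5:**
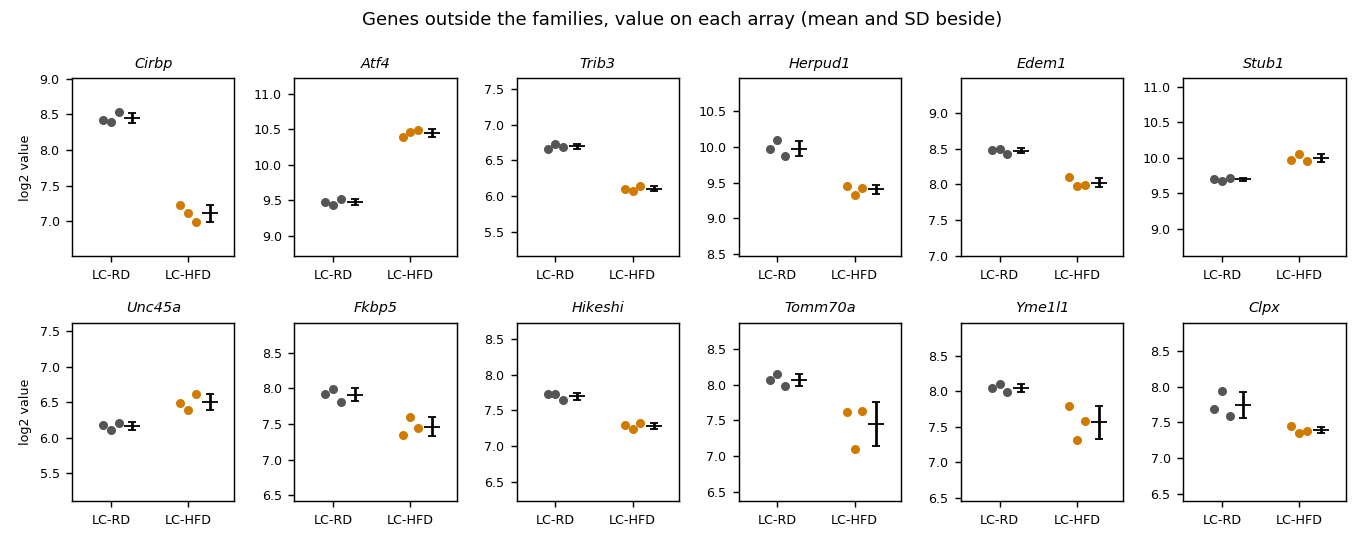
Log2 value (vertical axis, the same span in every panel) of 12 genes outside the families on each array, LC-RD at left and LC-HFD at right. Circles are single mice, and the bar is the mean with its SD (n = 3). Cirbp is lower and Atf4 higher in LC-HFD, with Trib3, Herpud1 and Edem1 lower.

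Some genes of other lists also differed between the diet groups, and their part in the chaperone differences was not tested. For comparison with the counts that follow, 16.2% of all genes were lower and 11.1% higher by limma. Of 12 immediate early genes, which respond within minutes to stimulation or handling of tissue, 7 were lower and 1 higher in LC-HFD, and Fos fell by 2.00. Of 15 clock genes, 5 were lower and 0 higher by limma (6 and 2 at an unadjusted p under 0.05, 4 and 0 by the methods' t-test). The summed level of 3 platelet markers was 7.79 to 7.90 in LC-HFD and 8.52 to 8.61 in LC-RD. Of these markers, 2 of 3 were lower, Ppbp by 2.27 and Pf4 by 0.33. The summed level of 8 heart muscle markers was 7.11 to 7.18 in LC-HFD and 7.51 to 7.75 in LC-RD. By limma 3 of 8 were lower, Myl7 by 1.36, Myh6 by 0.53 and Tnni3 by 0.46, and by the methods' t-test 1 was. Of 4 endothelial markers, 2 were lower and 1 higher, and the summed level was 10.42 to 10.52 against 10.54 to 10.56. RNA integrity was read as the excess of 3′ over 5′ signal of control transcripts. It was 1.584 to 1.696 in LC-HFD and 1.703 to 1.761 in LC-RD, without overlap. A fit with this signal as a covariate therefore cannot fully separate it from diet. With this signal as a covariate, 8 members were higher and 5 lower, which is 10.3% and 6.41%, against 3.2% and 5.04% of all genes in the same fit.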

How the data were processed

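Each lung (3 mice per group) was hybridized to its own array. The authors deposited log2 values, 1 per probe set and array. The submitters' processing notes name GCRMA (background correction from probe sequence, then normalization across arrays) and the methods name Partek software; versions are not stated there. The values were used as deposited. The number of unused per-sample columns was 0.

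Of 45101 probe sets, 64 controls were set apart. In the platform annotation 34945 of the others map to 1 gene, 932 to more than 1 and 9160 to no gene; 34741 symbols were updated by Entrez ID, and only probe sets of 1 gene were named. A linear model per probe set was fitted with limma 3.58.1 (R 4.3.3; moderated test, two-sided), and p-values were adjusted by Benjamini and Hochberg's procedure across all 45037; members passed under 0.05. The fit was tested on simulated data. Precision is limited by 3 arrays per group: the members' median SD was 0.0859 (LC-HFD) and 0.0635 (LC-RD).

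Named members were the 8 largest rises and 8 largest falls among members that passed without overlap, founding members of each family, and up to 2 further passing members per family; up to 4 passing genes were named from each other list. Members, classes and lists were chosen with earlier results of these data known, and the classes rest on general knowledge. Alternatives covered the test (including the methods' t-test), variance model, array weights, normalization, filters on low values, choice of probe set, RNA integrity, a replicate block and leaving out each array. Further marker lists gave, by limma, 0 of 2 red cell and 0 of 5 smooth muscle markers passing (0 and 2 at an unadjusted p under 0.05, 0 and 0 by the methods' t-test). By limma 1 of 6 passed for cilia (lower), 1 of 4 for skeletal muscle (higher) and 3 of 4 for testis germ cells (higher). The methods' t-test gave 0 for cilia, 0 for skeletal muscle and 1 for germ cells. Of the 4 germ cell markers, 3 had a mean under 4.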

Additional observations from a re-analysis of the deposited data

How the results depend on the processing

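Over 17 alternatives, the number of members higher in LC-HFD was 8 to 15, against 10 in the reported fit. The 15 came with the intensity trend and robust variance (19.2% of members, against 14.1% of all genes). The number higher was 17 only when any probe set of a gene could count, an alternative chosen after seeing the data. That alternative also gave 23 lower, and the shares of all genes under it were not computed. The number lower was 15 in the reported fit, 5 with the 3′ minus 5′ covariate and 9 with the replicate block. These were 19.2%, 6.41% and 11.5% of members, against 16.2%, 5.04% and 11.1% of all genes. Leaving out 1 array gave 7 to 15 lower. The intensity trend with robust variance gave 22 lower (28.2% of members, against 21.9% of all genes). Filters at a mean of at least 4 and of at least 6 each gave 18 lower. These were 25.4% and 30.5% of the members kept, against 27.3% and 35.7% of the genes kept. In every setting Hspa1b alone was over 2-fold. The replicate block changed the call of 8 named members, each with the same difference, and replicate numbers did not pair the mice: deviations of same-numbered arrays correlated at -0.0431, -0.093 and -0.0303. The median of the inducible members was 0.20 after quantile normalization, 0.12 with the covariate, 0.26 on transcript-specific probe sets, -0.0602 on the median level of a gene's probe sets, -0.0602 on the median of their differences (chosen after seeing the data) and 0.13 to 0.21 leaving out 1 array. That of the constitutive members was -0.00064 with the covariate, -0.10 on the median level and -0.0989 to -0.0163 leaving out 1 array, and that of the ER members was -0.11 on the median level. That of the mitochondrial members was -0.0719 after quantile normalization, -0.0502 with the covariate, -0.26 on the median level, -0.0985 on the median of the differences and -0.24 to -0.0706 leaving out 1 array. With 3 probe sets the median level is mostly that of the probe set of middle level, not the median of their differences, which was 0.07 for Dnajc17 and -0.19 for Hspa14. On the median level the sign turned for Dnajc17 (-0.15), Dnaja1 (-0.0602), Hspa14 (0.30), Hspa5 (0.0597), Hspa4 (-0.11) and Hspb1 (-0.10), and with the covariate for Hsp90b1 (0.0503), Hspb1 (-0.0106) and Bag1 (0.0108). It also turned for Bag1 with median centering (0.0084). Leaving out 1 array gave -0.0269 to 0.0048 for Bag1 (above 0 without LC-HFD replicate 2) and -0.0770 to 0.0029 for Dnajc3 (above 0 without LC-HFD replicate 3). When each array was left out in turn, 8 of 10 higher and 7 of 15 lower members passed in all 6 fits. Of 620 values of 37 named members, 516 kept their direction and side of the threshold, 77 lost the call and 15 gained one; Hspa8 passed in 6 alternatives and Hsph1 in 5. The causes were not tested.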
